A study of Rattus norvegicus with 6 samples.

Results

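Chemokines are small secreted proteins that steer the movement of leukocytes and of some tissue cells, and the chemokine ligand and receptor genes of neonatal rat cardiomyocytes are described here after stimulation with human cardiotrophin 1 (hCT1), a cytokine of the IL-6 family that signals through gp130. The members were all genes whose symbol began as a CC, CXC, C or CX3C ligand or receptor symbol does (Ccl, Cxcl, Ccr, Cxcr, Xcl1, Xcr1, Cx3c or Ackr), together with Pf4 and Ppbp, where the platform annotation pairs the probe set with exactly 1 symbol. This gave 54 genes of the 14506 genes measured in that way, 35 ligands and 19 receptors, each with 1 probe set. The rule used names only and no measured value, but it was chosen with earlier results of these data known.

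The series holds 6 arrays. The 3 hCT1 samples were primary ventricular cardiomyocytes of Sprague-Dawley rats at 2 days of age, treated with 0.5 nM hCT1 for 24 h, and the 3 Control samples were the same kind of culture kept in control serum-free medium. The growth protocol given with all 6 samples names a hypertrophic agonist in the serum-free medium, and the group titles and the methods were followed in reading the Control samples as untreated. Whether each array came from a culture of its own is not stated, and every p-value here rests on the scatter among arrays that may be no more than technical repeats. The cultures were pre-plated to deplete fibroblasts, whose marker Col1a1 was still bright (percentile 99.3 of the signal over all probe sets). Values are log2 values of the RMA method as deposited, so a difference of 1 is a doubling of signal, and dim probe sets understate it. Correlations between arrays over all probe sets were 0.997 to 0.998 within groups and 0.994 to 0.996 between them.

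A chemokine gradient is read by receptors of the G protein-coupled family, which turn the cell towards the source, while atypical receptors bind chemokines without that signal and clear them. Ligands are grouped by the spacing of their first cysteines (CC, CXC, C and CX3C), and many of their genes lie side by side in genomic clusters that arose by duplication. In the heart, chemokines are known for drawing monocytes and neutrophils after injury, and the Cxcl12 and Cxcr4 axis for the recruitment and retention of progenitor cells and for vessel growth.

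The upstream bases of 4 ligand genes are shown because these genes gave unlike results: the neighbours Cxcl11, Cxcl10 and Cxcl9, which share the receptor Cxcr3 and lie next to each other on chromosome 14, and Ccl20 on chromosome 9. Each run holds the 250 bases before the gene start of RefSeq, 5′ to 3′ on the plus strand of build GRCr8. The capitals mark matches to any of 4 motifs searched on both strands: GAS (TTCNNNGAA, bound by STAT proteins), ISRE (GAAA, any 2 bases and GAAA again, the interferon response element), AP-1 (TGANTCA) and the kappaB consensus of NF-kappaB. The positions are chr14:15973478-15973727 for Cxcl11, chr14:15988816-15989065 for Cxcl10, chr14:16006916-16007165 for Cxcl9 and chr9:91836909-91837158 for Ccl20.
Cxcl11: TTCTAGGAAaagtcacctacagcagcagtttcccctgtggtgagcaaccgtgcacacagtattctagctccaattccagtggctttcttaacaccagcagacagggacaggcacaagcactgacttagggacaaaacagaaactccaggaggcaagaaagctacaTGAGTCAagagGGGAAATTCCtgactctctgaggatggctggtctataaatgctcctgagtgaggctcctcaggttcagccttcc
Cxcl10: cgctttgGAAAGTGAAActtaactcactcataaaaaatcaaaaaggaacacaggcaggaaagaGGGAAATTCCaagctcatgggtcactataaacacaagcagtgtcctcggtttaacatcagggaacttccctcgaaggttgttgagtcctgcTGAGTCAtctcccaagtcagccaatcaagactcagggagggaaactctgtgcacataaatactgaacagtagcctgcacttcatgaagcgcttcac
Cxcl9: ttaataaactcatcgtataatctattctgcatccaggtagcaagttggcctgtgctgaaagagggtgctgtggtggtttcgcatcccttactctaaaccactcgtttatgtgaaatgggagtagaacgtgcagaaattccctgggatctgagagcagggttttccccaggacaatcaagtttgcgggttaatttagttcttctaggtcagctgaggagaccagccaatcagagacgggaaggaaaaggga
Ccl20: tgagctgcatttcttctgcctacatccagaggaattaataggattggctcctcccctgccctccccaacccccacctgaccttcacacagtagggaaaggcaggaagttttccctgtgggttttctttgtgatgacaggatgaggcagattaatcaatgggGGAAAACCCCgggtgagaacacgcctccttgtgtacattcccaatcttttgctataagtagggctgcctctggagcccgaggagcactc
In the Cxcl11 window the capitals are, in order, a GAS match that begins 250 bases before the start, an AP-1 match at 85 bases and a kappaB match at 74 bases. The Cxcl10 window has an ISRE match at 243 bases, a kappaB match at 187 bases and an AP-1 match at 96 bases. The Ccl20 window has a kappaB match at 89 bases, and the letters of none of the 4 motifs are in the Cxcl9 window. No matches overlap in these windows.

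With hCT1, 7 of the 54 genes passed limma at an adjusted p under 0.05 as higher and 0 as lower. Over all 15310 probe sets tested, 4.98% passed as higher and 9.84% as lower, so that the share of members higher (13%) was above the background and the share lower was below it. The split of all calls was 33.6% higher as deposited and 44.4% higher after another round of quantile normalization, under which 7 members were likewise higher and 0 lower. At an unadjusted p under 0.05, 12 members were higher and 0 lower, where 11.7% and 18.3% of all probe sets were. The 7 genes were the ligands Cxcl11, Ccl27, Ccl20, Cxcl12, Cx3cl1 and Xcl1 (6 of 35 ligands, 17.1%) and the receptor Cxcr5 (1 of 19 receptors). Only Cxcl11 and Ccl27 among the members also reached a difference of 1.5-fold, which 0.771% of all probe sets did as higher. In bulk samples such as these, a change in the number of cells of a type and a change in RNA per cell cannot be told apart.

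**Figure D1:**
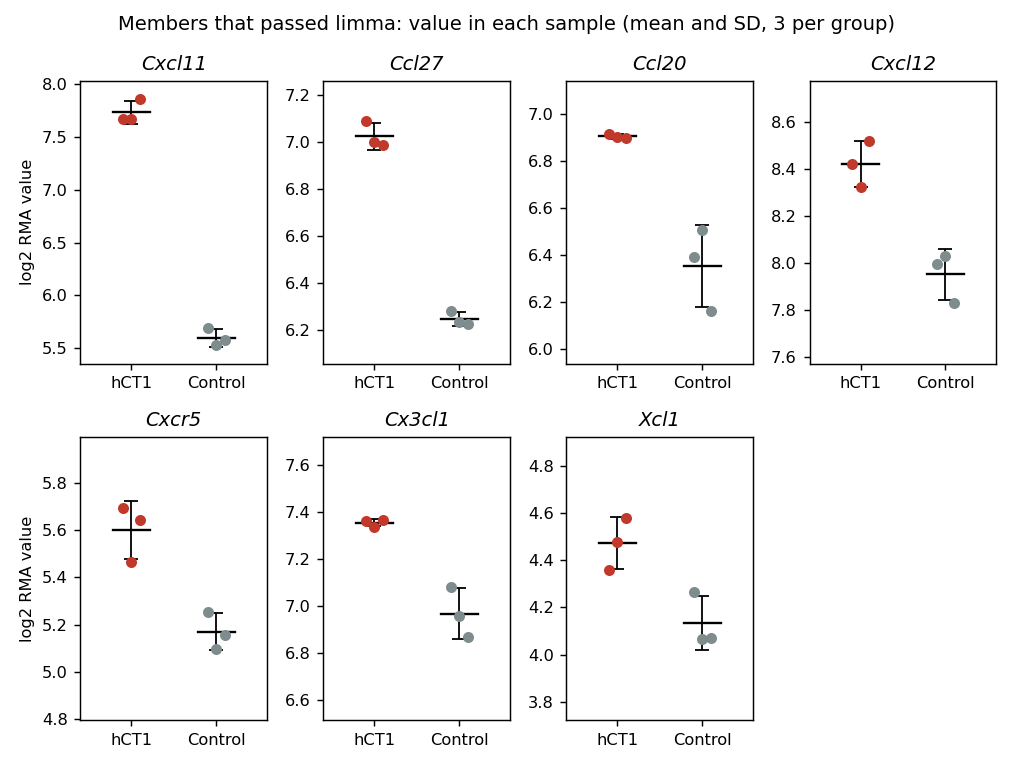
Log2 RMA value of the 7 genes that passed limma, 1 panel per gene, with hCT1 samples on the left and Control samples on the right; points are samples, horizontal lines are means and bars are SDs (n = 3 each). In every panel the lowest hCT1 sample lies above the highest Control sample; the axis of Cxcl11 spans a wider range than those of the other genes, whose axes share 1 span.

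Cxcl11 (probe set 10771649), an interferon-inducible ligand of Cxcr3 that draws activated T cells and also binds the atypical receptor Ackr3, was the member with the largest difference. It read 7.67, 7.68 and 7.86 in the hCT1 samples and 5.69, 5.53 and 5.57 in the Control samples. The groups were far apart, with a gap of 1.98 between the lowest hCT1 and the highest Control sample. The difference of 2.14 ± 0.073 on the log2 scale (SE) was 4.4-fold (95% interval 3.93 to 4.93), with a limma adjusted p of 5.08e-07. Its signal lay at percentile 74.4 of the hCT1 arrays and 50.6 of the Control arrays, a mark of how dim a probe set is among all on the array and not a level to be set against other genes. Like Cxcl10, the gene lies within the RefSeq span of Art3, whose own probe set gave a difference of -0.085 (adjusted p = 0.384).

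The other ligands of Cxcr3 did not pass the test. Cxcl10, which is likewise known as an interferon-inducible chemokine, read 8.05, 7.90 and 7.77 in hCT1 samples and 7.96, 7.91 and 7.81 in Control samples. The groups overlapped, and the interval of the difference ran from -0.17 to 0.19 (adjusted p = 0.938). Its signal was well within the scale, at percentile 76, and its window shown above has an ISRE match and the same kappaB letters as that of Cxcl11. Cxcl9 read 3.67, 3.65 and 3.72 in hCT1 samples and 3.63, 3.67 and 3.56 in Control samples and was dim in both groups (percentile 22.6; adjusted p = 0.532). Pf4, a platelet chemokine placed with this group because a variant of the human receptor binds it, gave a difference of -0.10 (adjusted p = 0.637). The receptor Cxcr3, found mainly on T and NK cells, read 5.10, 4.90 and 4.90 in hCT1 samples and 4.93, 4.68 and 4.83 in Control samples, with overlapping groups and an adjusted p of 0.248.

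**Figure D2:**
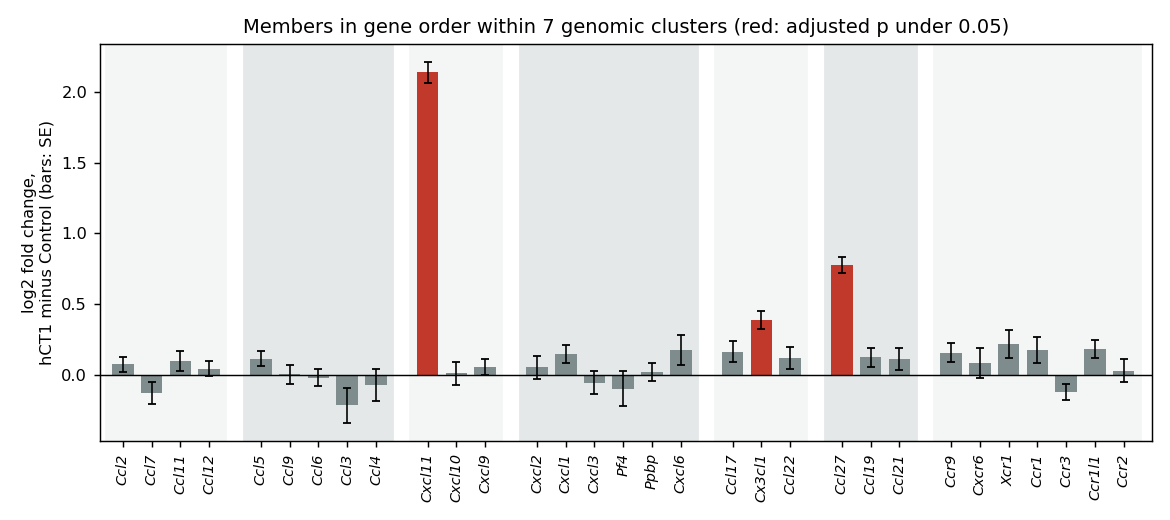
Log2 fold change (hCT1 minus Control) of the 31 members that lie in 7 genomic clusters, drawn in gene order from left to right with shading by cluster; bars are fitted differences, whiskers are SEs of the limma fit and red marks an adjusted p under 0.05. In each of the 3 clusters with a red bar, Cxcl11, Cx3cl1 and Ccl27 stand alone among their neighbours.

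The positions of the members in the genome were set beside the calls. With neighbours joined at gaps of up to 200 kb, 31 members formed 7 clusters of at least 3 genes. Of these genes 3 passed, in 3 different clusters, while Ccl20, Cxcl12, Xcl1 and Cxcr5 lay in none. Over all probe sets 4.98% passed as higher. With so few calls, their spread over the clusters is not read as a result. Cxcl11 was the member that passed beside Cxcl10 and Cxcl9, Cx3cl1 the one that passed between Ccl17 and Ccl22, and Ccl27 the one that passed beside Ccl19 and Ccl21. The remaining 4 clusters held no gene that passed. They were the monocyte and eosinophil attractants Ccl2, Ccl7, Ccl11 and Ccl12, the group of Ccl5, Ccl9, Ccl6, Ccl3 and Ccl4, the neutrophil attractants with Pf4, and the receptor cluster of Ccr9, Cxcr6, Xcr1, Ccr1, Ccr3, Ccr1l1 and Ccr2. Whether a gene that passed differed from its neighbours was not tested.

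Among the 7 CC ligands of lymphoid, skin and gut homing, 1 was higher and 6 did not pass, with a median difference of 0.123. That share (14.3%) rests on 1 gene, and 4.98% of all probe sets passed as higher. Ccl27 (probe set 10876193), a skin chemokine that draws memory T cells through Ccr10, read 7.09, 6.999 and 6.99 in hCT1 samples and 6.28, 6.23 and 6.23 in Control samples. The spread within each group was small against the gap of 0.70 between them. The difference was 0.78 ± 0.056 (SE), 1.71-fold (95% interval 1.57 to 1.87), with an adjusted p of 4.7e-05. In RefSeq the gene overlaps Il11ra1, which encodes a receptor chain for IL-11, another gp130 cytokine, and the probe set of Il11ra1 gave a difference of -0.0991 (adjusted p = 0.285). It also overlaps the long noncoding RNA gene LOC102547621, for which no value was at hand. The receptor Ccr10 read 6.05, 5.92 and 6.05 in hCT1 samples and 5.92, 5.68 and 5.91 in Control samples, which overlapped by a narrow margin (adjusted p = 0.182). Ccl28, the mucosal ligand of the same receptor, gave -0.05 (adjusted p = 0.699). Ccl19 and Ccl21, which guide dendritic cells and T cells into lymph nodes through Ccr7, gave 0.12 and 0.12 (adjusted p = 0.262 and 0.35). Ccl17 and Ccl22, the ligands of Ccr4, gave 0.17 and 0.12, and the gut ligand Ccl25 gave 0.03.

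The 12 CC ligands of inflammation held 1 gene that was higher and 11 that did not pass, with a median difference of 0.033. This share of 8.33% rests on 1 gene too, beside 4.98% of all probe sets. Ccl20 (probe set 10924780), which draws dendritic cells and Th17 cells through Ccr6, read 6.92, 6.90 and 6.90 in hCT1 samples and 6.39, 6.51 and 6.16 in Control samples. The Control samples were more spread than the hCT1 samples, and the groups were apart by 0.39. Its difference was 0.55 ± 0.084 (SE), 1.47-fold (95% interval 1.29 to 1.67), with an adjusted p of 0.00292. Under a one-way test, which estimates each gene's spread from its own samples, the adjusted p was 0.0627. The methods name one-way tests for comparisons of several groups in general and state no model for the arrays. The receptor Ccr6 read 4.02, 3.64 and 3.69 in hCT1 samples and 3.91, 3.66 and 3.76 in Control samples, which overlapped (adjusted p = 0.948).

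The best known cardiac chemokine of this group, the monocyte attractant Ccl2, read 12.02, 12.04 and 12.10 in hCT1 samples and 11.99, 12.001 and 11.95 in Control samples. All hCT1 samples lay above all Control samples, but by 0.022 only, and the difference of 0.08 ± 0.054 did not pass (adjusted p = 0.388). Its probe set was among the brightest on the arrays (percentile 99.7). Ccl7, which binds the same receptor Ccr2 and others, read 8.14, 7.87 and 8.14 in hCT1 samples and 8.21, 8.18 and 8.15 in Control samples. Here all hCT1 samples lay below all Control samples, with a difference of -0.13 (adjusted p = 0.307). Ccl3 gave the lowest difference of all members, -0.21 ± 0.12, and the related Ccl4 gave -0.07 (adjusted p = 0.275 and 0.718). Ccl5, a T cell and monocyte attractant, gave 0.11 with its groups apart by 0.051 (adjusted p = 0.192). The eotaxins Ccl11, Ccl24 and Ccl26, ligands of the eosinophil receptor Ccr3, lay between 0.02 and 0.10, and Ccl6, Ccl9 and Ccl12, known from rodents, lay between -0.02 and 0.04.

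The group of other CXC, C and CX3C ligands had 3 of 7 members higher, and all 7 differences were above 0 (median 0.187). Of all probe sets, 4.98% passed as higher and 49.3% had a difference above 0. Below percentile 40, where Xcl1, Cxcl13 and Cxcl14 lay, 68.1% of all probe sets had a difference above 0. Cxcl12 (probe set 10858165), the homeostatic ligand of Cxcr4 and Ackr3, read 8.42, 8.32 and 8.52 in hCT1 samples and 7.998, 8.03 and 7.83 in Control samples. No hCT1 sample came within 0.29 of a Control sample. The difference was 0.47 ± 0.075 (SE), 1.38-fold (95% interval 1.23 to 1.55), with an adjusted p of 0.00393 by limma and 0.0602 by the one-way test. Its signaling receptor Cxcr4 read 6.01, 5.88 and 5.91 in hCT1 samples and 5.90, 5.83 and 5.94 in Control samples (adjusted p = 0.667). Ackr3, the scavenging receptor that Cxcl12 shares with Cxcl11, read 9.02, 8.80 and 8.91 in hCT1 samples and 9.03, 9.02 and 8.76 in Control samples (adjusted p = 0.891). Both receptors overlapped between groups, and the 95% interval of the difference was -0.091 to 0.18 for Cxcr4 and -0.22 to 0.18 for Ackr3.

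Cx3cl1 (probe set 10809269), or fractalkine, is a chemokine tethered to the cell surface by a mucin stalk that holds monocytes bearing Cx3cr1. It read 7.36, 7.34 and 7.37 in hCT1 samples and 7.08, 6.96 and 6.87 in Control samples. The difference was 0.39 ± 0.065 (SE), 1.31-fold (95% interval 1.18 to 1.45), with an adjusted p of 0.00507 by limma and 0.0498 by the one-way test. Its receptor Cx3cr1 read 5.08, 4.91 and 4.86 in hCT1 samples and 4.86, 4.99 and 4.84 in Control samples, with overlapping groups (adjusted p = 0.675). Cxcl16, the other membrane-bound chemokine and ligand of Cxcr6, gave 0.14 ± 0.064, with groups that overlapped narrowly (adjusted p = 0.183), and Cxcr6 gave 0.08. Cxcl14 and Cxcl17 gave 0.07 and 0.07.

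Xcl1 (probe set 10769488), or lymphotactin, is made by T and NK cells and draws dendritic cells that carry Xcr1. It read 4.36, 4.48 and 4.58 in hCT1 samples and 4.27, 4.07 and 4.07 in Control samples. The groups were apart by 0.091, and the difference was 0.34 ± 0.079 (SE), 1.26-fold (95% interval 1.12 to 1.43). The adjusted p of 0.022 was the weakest among the 7 genes. It was 0.124 by the one-way test, and by limma it was 0.0639 without hCT1 replicate 2, 0.0724 without hCT1 replicate 3, 0.0803 without Control replicate 2 and 0.0523 without Control replicate 3. The probe set was dim (percentile 32.9). Xcr1 was dim too, at percentile 33.3, and read 4.65, 4.36 and 4.30 in hCT1 samples and 4.33, 4.09 and 4.22 in Control samples, with overlapping groups (adjusted p = 0.176).

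Cxcr5 (probe set 10916822), which leads B cells and follicular T cells into lymphoid follicles, was the receptor that passed, 1 of 19 (5.26%, close to the background of 4.98%). It read 5.69, 5.46 and 5.65 in hCT1 samples and 5.25, 5.10 and 5.16 in Control samples. The groups were apart by 0.21, and the difference was 0.43 ± 0.075 (SE), 1.35-fold (95% interval 1.2 to 1.52), with an adjusted p of 0.00571 by limma and 0.068 by the one-way test. In RefSeq Cxcr5 overlaps Bcl9l, whose probe set gave -0.0421 (adjusted p = 0.712). The known ligand of Cxcr5, Cxcl13, read 3.61, 3.37 and 3.38 in hCT1 samples and 3.23, 3.28 and 3.28 in Control samples. All hCT1 samples lay above all Control samples there, but the probe set was near the floor of the arrays (percentile 18.5) and the difference of 0.19 did not pass (adjusted p = 0.119).

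**Figure D3:**
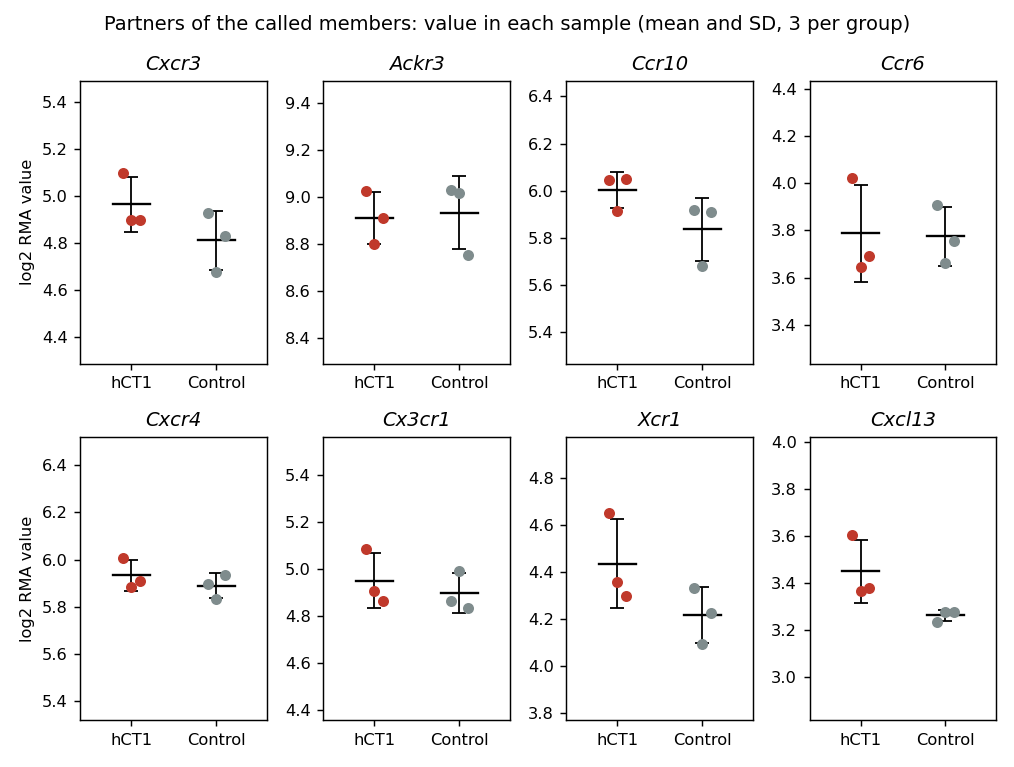
Log2 RMA value of 8 members that are known receptors or ligands of the 7 genes that passed, 1 panel per gene, with hCT1 samples on the left and Control samples on the right; points are samples, lines are means and bars are SDs (n = 3 each). The groups overlap in every panel except that of Cxcl13, and none of the 8 genes passed limma.

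None of these 8 partners passed the test, 7 of them receptors and 1 the ligand of Cxcr5. Their adjusted p-values lay between 0.119 and 0.948, and 14.8% of all probe sets passed in either direction. Differences as large as those of the ligands lay outside the 95% intervals of Cxcr3 (set against Cxcl11), Ackr3 and Cxcr4 (against Cxcl12), Ccr10 (against Ccl27) and Cx3cr1 (against Cx3cl1). Their upper bounds were 0.34 for Cxcr3, 0.18 for Ackr3, 0.18 for Cxcr4, 0.34 for Ccr10 and 0.22 for Cx3cr1. Cxcr3 and Cx3cr1 were not bright (percentiles 41.8 and 42.3), and dim probe sets understate a difference. For both, the interval bounds the difference in signal, and a larger change in RNA is not excluded by it. Ccr6 was dim (percentile 24.6), so its interval (-0.22 to 0.25) was not set against Ccl20. For Xcr1, dim as well, the interval of -0.0052 to 0.44 held the difference of Xcl1.

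None of the 5 ligands of the neutrophil receptor Cxcr2 passed the test (median 0.055), where 14.8% of all probe sets passed in either direction. Cxcl6 had the largest difference of the group and read 5.11, 5.15 and 5.18 in hCT1 samples and 4.72, 5.20 and 4.99 in Control samples. The range of the Control samples covered all hCT1 samples (adjusted p = 0.305). Cxcl1, a main neutrophil attractant of the rat, read 8.90, 8.74 and 8.80 in hCT1 samples and 8.60, 8.72 and 8.67 in Control samples. These groups were apart by 0.025, with a difference of 0.15 ± 0.063 (adjusted p = 0.145). Cxcl2, Cxcl3 and Ppbp were dim, at percentiles 26.1, 27.5 and 22.1, and lay between -0.05 and 0.06. Sequences of these genes are alike, as are those of Ccl2, Ccl7 and Ccl12, and probes may share signal between them. The receptors Cxcr1 and Cxcr2 gave 0.01 and 0.09, and Cxcr2 was among the dimmest members (percentile 8.03).

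The CC receptors held no gene that passed, of 8 (median 0.123), where 14.8% of all probe sets passed in either direction. Ccr7, the receptor of Ccl19 and Ccl21, came closest and read 5.40, 5.40 and 5.47 in hCT1 samples and 5.26, 5.19 and 5.27 in Control samples. Its groups were apart by 0.125, and the difference was 0.18 ± 0.055 with an adjusted p of 0.0595. The monocyte receptors Ccr1 and Ccr2 and the gut homing receptor Ccr9 were dim (percentiles 9.94, 6.6 and 11.1) and gave 0.18, 0.03 and 0.16. Ccr3, at percentile 2.86 the dimmest member, read 2.07, 2.04 and 2.14 in hCT1 samples and 2.18, 2.19 and 2.23 in Control samples. These hCT1 samples lay below all Control samples, with a difference of -0.12 (adjusted p = 0.181). Ccr4 gave 0.09, and Ccr1l1, a receptor-like gene of rodents in the same cluster as Ccr1, gave 0.18 with groups apart by 0.020 (adjusted p = 0.0888). Ackr2, which clears inflammatory CC chemokines, gave 0.01 (adjusted p = 0.927).

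**Figure D4:**
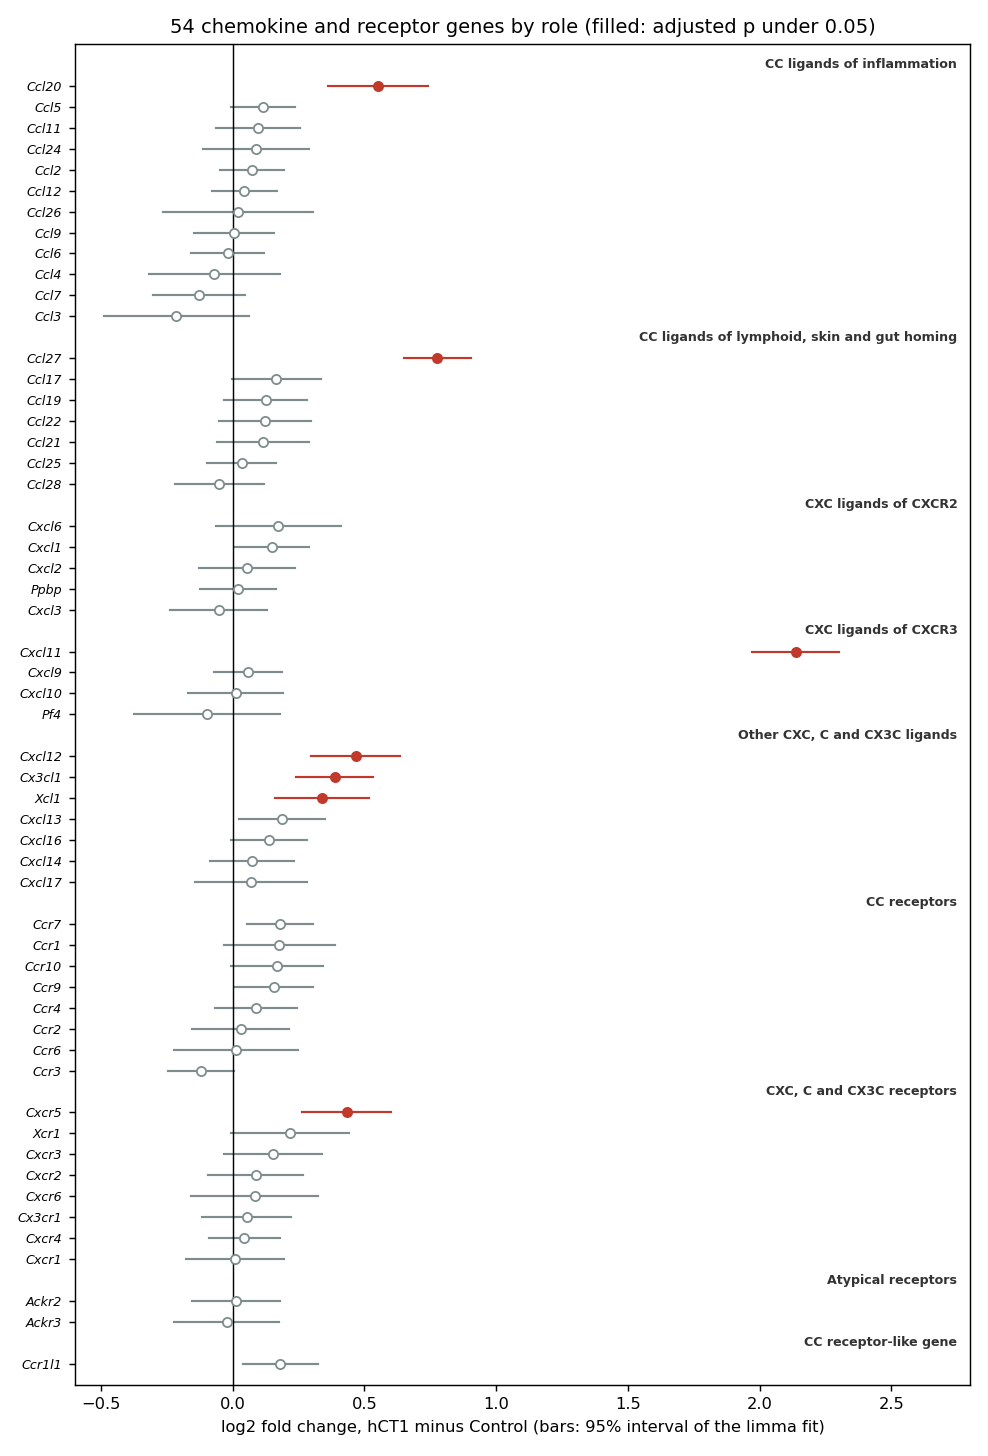
Log2 fold change (hCT1 minus Control) of the 54 genes, grouped by role and ordered by size within each group; points are fitted differences, bars are 95% intervals of the limma fit and filled red points passed an adjusted p under 0.05. The 7 filled points lie to the right of 0, with Cxcl11 at 2.14 far from the rest, and the 47 open points lie between -0.21 and 0.22.

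Across all members the differences leaned upwards. Of the 54 genes, 45 had a difference above 0 (83.3%), against 49.3% of all probe sets, and the median was 0.086, against -0.003. In 14 members all hCT1 samples lay above all Control samples, which 13.9% of all probe sets did, and in 2, Ccl7 and Ccr3, they lay below, which 20.5% of all probe sets did. Among the 47 genes that did not pass, 5 had an unadjusted p under 0.05, namely Cxcl1, Cxcl13, Ccr7, Ccr9 and Ccr1l1, all higher. Of all probe sets, those that passed included, 11.7% were higher at that unadjusted p, so the count is not read as a result. Cxcl13, Ccr9 and Ccr1l1 were dim (percentiles 18.5, 11.1 and 33.1).

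Over all probe sets, a difference above 0 was more frequent at low signal, while the members leaned upwards at low and at higher signal. The members were mostly dim, with 30 of 54 below percentile 40 of mean signal and 9 below percentile 20. Of all probe sets below percentile 40, 68.1% had a difference above 0 (median 0.047), and of those at or above it 41.2% (median -0.037). The members below percentile 40 had a difference above 0 in 86.7% (median 0.066), and the members at or above it in 79.2% (median 0.144). The genes that passed were mainly in the brighter part, where 6 of 24 members passed as higher (25%), against 5.97% of all probe sets there. In the dim part 1 of 30 members passed, Xcl1 (3.33%), against 2.67% of all probe sets there. The part of signal strength in the upward lean was not tested.

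**Figure D5:**
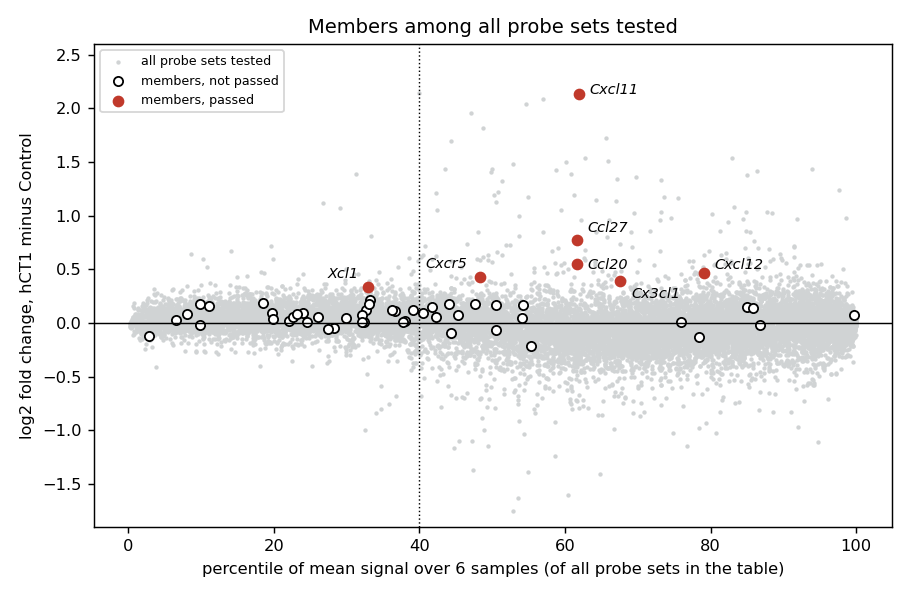
Log2 fold change (hCT1 minus Control) against the percentile of mean signal over 6 samples, with 1 point per probe set; grey points are all probe sets tested, open circles are members that did not pass, red circles are the 7 that did and the dotted line marks percentile 40. Xcl1 is the red circle left of the line, and 4 probe sets above the plotted range are not drawn.

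The motifs marked in the sequences shown above were counted in the same 250-base windows of all RefSeq starts. GAS letters were in 7.67% of 33469 windows, ISRE letters in 3.41%, kappaB letters in 3.54% and AP-1 letters in 6.34%. A window was at hand for 42 of the 54 members and for 6 of the 7 that passed, all but Cxcr5. GAS letters were in 4 member windows (Cxcl11, Ccl17, Ccl24 and Ccr6), and Cxcl11 was the 1 of these that passed. The kappaB letters were in 8 member windows (Cxcl11, Ccl20, Cxcl10, Cxcl1, Cxcl2, Cxcl6, Ccl9 and Ccr3), of which Cxcl11 and Ccl20 passed. In Cxcl1, Cxcl2 and Cxcl6 the kappaB matches on the opposite strands overlap each other. AP-1 letters were in 7 member windows (Cxcl11, Cxcl10, Ccl7, Cxcl14, Ccr3, Cxcr6 and Xcr1), of which Cxcl11 passed, and ISRE letters in 2, Cxcl10 and Ccl19, of which none passed. These matches describe letters and not bound sites.

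Genes that are known to induce chemokines, relay their signal or act beside them were described from lists. The counts are to be read beside the shares of all probe sets tested, of which 4.98% passed as higher and 9.84% as lower. No list was tested as a set. Of 22 measured genes for cytokine signals that induce chemokine genes, 6 were higher, 1 was lower and 15 did not pass (median 0.075). The 4 largest were Tlr2, a receptor for bacterial lipoproteins (0.61), the cytokine gene Il6 (0.48), the adaptor Myd88 (0.45) and the TNF receptor Tnfrsf1a (0.36), with adjusted p-values of 0.00345, 0.0121, 0.00169 and 0.0028. Stat3, which carries the gp130 signal into the nucleus, averaged 10.67 ± 0.0097 in hCT1 samples and 10.38 ± 0.019 in Control samples (SD, n = 3 each; adjusted p = 0.00728). Ifngr2, a chain of the interferon gamma receptor, rose by 0.28, and Nfkb1, an NF-kappaB subunit, fell by 0.21 (adjusted p = 0.0159 and 0.0269). The interferon regulator Irf1 gave 0.06 and the cytokine genes Ifng and Tnf gave 0.07 and 0.09, none of which passed (adjusted p = 0.562, 0.586 and 0.67).

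Among 17 genes for leukocyte adhesion molecules, 3 were higher and 1 was lower (median 0.006). Selp, encoding P-selectin, on which leukocytes roll along activated endothelium and platelets, averaged 7.80 ± 0.03 in hCT1 samples and 6.46 ± 0.028 in Control samples (SD, n = 3 each). Its rise of 1.34 had an adjusted p of 1.17e-06. F11r, a tight junction molecule, rose by 0.47, Sele, encoding E-selectin, rose by 0.46, and the junction molecule Jam3 fell by 0.32. Of 36 genes for chemokine receptor signaling and desensitization, 4 were higher and 5 lower (median 0.039). The 4 largest were the GTPase gene Rac2 (0.37), Elmo1, which helps to activate Rac (0.35), the kinase gene Fgr (0.32) and Rgs2, which ends G protein signals (-0.29), with adjusted p-values of 0.0305, 0.0119, 0.0154 and 0.0119. Of 23 genes for chemokine-cleaving proteases and heparan sulfate carriers, Cpd rose by 0.18, and the heparan sulfate enzyme genes Hs3st1 and Sulf1 fell by 0.38 and 0.22 (median -0.037).

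Other chemoattractants and their receptors moved in both directions, with 3 of 22 genes higher and 4 lower (median 0.027). Gpr182, an atypical receptor reported to bind Cxcl10, Cxcl12 and Cxcl13, averaged 6.29 ± 0.086 in hCT1 samples and 5.47 ± 0.22 in Control samples (SD, n = 3 each), a rise of 0.81 (adjusted p = 0.00125). Csf3, the neutrophil growth factor, rose by 0.61. Its probe set was dim (percentile 38.6), as were those of Il6, Sele and Fgr (percentiles 39.2, 38.9 and 33.8). C3ar1, the receptor of the complement fragment C3a, averaged 6.47 ± 0.04 in hCT1 samples and 7.32 ± 0.14 in Control samples (SD, n = 3 each), a fall of 0.85 (adjusted p = 0.000154). Rarres2, which encodes chemerin, fell by 0.52, and its receptor gene Cmklr1 fell by 0.34. The complement receptor gene C5ar2 rose by 0.46 and the receptor gene S1pr1 fell by 0.45 (limma adjusted p = 0.00219 and 0.0028).

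Markers of the cells in these cultures were set beside the members. Their counts too are to be read beside the 4.98% of all probe sets that passed as higher and the 9.84% that passed as lower. All 12 cardiomyocyte markers lay at or above percentile 81.2, and 5 of them, Tnni3, Myl2, Myh6, Mybpc3 and Ttn, were lower with hCT1. Their summed signal ranged on the log2 scale over 14.49 to 14.56 in hCT1 samples and 14.63 to 14.65 in Control samples. For macrophages, a main source and target of chemokines, 0 of 13 markers were higher and 1, Lyz2, was lower (fell by 0.52). Of the 13, 6 lay below percentile 40 and 5 had a difference above 0. Their sums were 9.20 to 9.37 in hCT1 samples and 9.44 to 9.52 in Control samples. Lyz2 was the brightest and weighs most in these sums. The mean log2 value over the 13 markers overlapped between groups, at 5.02 to 5.13 in hCT1 samples and 5.09 to 5.15 in Control samples. Of 11 endothelial markers 0 were higher and Emcn was lower, with sums of 11.38 to 11.47 in hCT1 samples and 11.42 to 11.52 in Control samples, and of 11 fibroblast markers none passed, with sums of 13.07 to 13.11 in hCT1 samples and 13.14 to 13.22 in Control samples. Of the 8 smooth muscle and pericyte markers, Abcc9 was higher and Myh11 and Tagln were lower, with sums of 13.39 to 13.41 in hCT1 samples and 13.45 to 13.48 in Control samples.

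The markers of lymphocytes and granulocytes were dim. All 8 neutrophil markers and 8 of 10 T and NK cell markers lay below percentile 40, and 1 of the 2 B cell markers did. None of these passed in either direction. Their sums were 6.97 to 7.05 in hCT1 samples and 6.84 to 6.98 in Control samples for neutrophils, 7.50 to 7.51 in hCT1 samples and 7.41 to 7.54 in Control samples for T and NK cells, and 5.41 to 5.51 in hCT1 samples and 5.26 to 5.50 in Control samples for B cells. Kit and Ms4a2 were the 2 of 6 mast cell markers that were higher (0.54 and 0.21), with sums of 7.21 to 7.34 in hCT1 samples and 6.88 to 6.92 in Control samples. Kit, at percentile 59.5, was the brightest and weighs most in these sums. The other 5 lay below percentile 40, Ms4a2 at percentile 9.32. Cpa3, Hdc, Cma1 and Tpsb2 gave 0.12, 0.09, 0.03 and -0.01 and did not pass. No platelet marker of 4 passed, with sums of 7.96 to 8.06 in hCT1 samples and 8.02 to 8.11 in Control samples, and of 4 erythroid markers Ahsp was lower, with sums of 6.33 to 6.42 in hCT1 samples and 6.34 to 6.57 in Control samples. RMA values have no true 0, so a marker at percentile 40 or less may be at background. The part of any of these cell types in the rise of the 7 genes was not tested.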

How the data were processed

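RNA of 6 samples (300 ng each) was prepared with the Affymetrix WT PLUS kit and hybridised to 1 array per sample. The authors made the deposited log2 values with RMA in Affymetrix Expression Console, per the submitters' processing notes; versions and a genome build for the values are not given in the sources used here. That method removes background, gives every array the same distribution of probe signals and joins the probes of each set into 1 value. There are no detection calls and no counts, and the number of arrays limits the precision. Of 29215 probe sets, 15310 had exactly 1 symbol in the platform annotation, 323 had several and 13582 had none; only the first were tested. Entrez identifiers matched RefSeq (GRCr8) for 15279 of these and for all 54 members, whose symbols were current.

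The values were used as deposited. The comparison was fitted over all 15310 probe sets in R 4.3.3 by limma 3.58.1, using lmFit and an eBayes step with no trend, 2-sided (statmod 1.5.0 served the alternatives), with Benjamini-Hochberg adjustment over all of them and a threshold of 0.05. Intervals are 95% intervals of that fit, not adjusted. An exact permutation test of 3 against 3 samples cannot go below p = 0.1 and was not used. The step was tested on simulated data with 200 changed genes. Python 3.11.15, pandas 2.3.3, numpy 2.4.6 and matplotlib 3.10.9 were used for lists, windows and plots.

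Genes were named with sample values if they passed, if their groups were apart by a difference of at least 0.3 (which added none), if they were the known partner of a gene that passed, or if they had the largest difference in a role group with none. Other members named with their values, such as Cxcl10 and Ccl2, were chosen for their role after values were seen, and from the lists the 4 largest changes that passed were named, with a few further genes chosen in the same way. The members and lists were chosen with earlier results of these data known. Results were recomputed under other tests, without probe sets below percentile 40 of mean signal, with unnamed probe sets included, under other normalizations and thresholds, with gene means, with the replicate number as a block and with each sample left out. Promoter windows came from RefSeq (GRCr8), with the 50 bases after the start not used.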

Additional observations from a re-analysis of the deposited data

How the results depend on the processing

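The count of members higher was 7. It was between 6 and 8 under 15 of 18 alternatives, 6 to 7 with 1 sample left out at a time, and 10 under the one-way test without adjustment. It moved to 3 under the same test with adjustment, which assumes no shared spread between genes. That test kept Cxcl11, Ccl27 and Cx3cl1, the last just under the threshold (adjusted p = 0.0498). With a minimum of 1.5-fold the count moved to 2, Cxcl11 and Ccl27. The count of members lower was 0 and became 1 (Ccr3) under the one-way test without adjustment. The median difference of the members was 0.086 and became 0.144 when probe sets below percentile 40 were left out. Cxcl11 and Ccl27 passed in all 18 alternatives, with differences of 2.08 to 2.19 and 0.74 to 0.84. Xcl1 was lost in 9 of 17, and Ccr7 was gained in 4 of 18. Single genes were recomputed only for the 17 named by the rule. Among these the direction changed for 3 receptors that did not pass: Ackr3 (-0.022) became 0.032 without hCT1 replicate 2, 0.025 without Control replicate 1 and 0.019 without Control replicate 2 (range with 1 sample left out -0.111 to 0.032); Ccr6 (0.013) became -0.028 after repeated quantile normalization, -0.106 without hCT1 replicate 1 and -0.044 without Control replicate 2 (range -0.106 to 0.084); and Cx3cr1 (0.053) became -0.013 without hCT1 replicate 1 (range -0.013 to 0.101). The cause was not tested. Over all probe sets, 762 were higher and 1506 lower (33.6% of calls higher); repeated quantile normalization gave 917 and 1148 (44.4%), the adjusted one-way test 376 and 675, and leaving out 1 sample 417 to 873 and 803 to 1810. The sources do not state whether the replicate numbers pair the samples. Deviations from the group means correlated at -0.025, 0.046 and -0.285 for the same number, and at -0.18 to 0.206 for other numbers. With 3 samples per group these values cannot decide whether the numbers pair the samples. With the number as a replicate block, 6 members were higher and 0 lower, and the median stayed at 0.086. In that fit Xcl1 had a limma adjusted p of 0.0531, and 490 probe sets passed as higher and 1010 as lower. Of the 54 members, 30 lay below percentile 40, where values understate a change, and the number of arrays limits the precision.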
